A study of Mus musculus with 6 samples.

Results

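Expression of the mismatch repair specific genes Exo1, Msh6, Msh3, Pms2, Mlh3 and Pms1 was examined in mouse tongue, 6 genes of 18193 measured. They were taken as the MutS homologs, MutL homologs and exonuclease on a given list of names, without the replication proteins that the pathway borrows. Each gene was read from the probe sets that the platform annotation assigned to it alone, 13 in all. The probe set with the highest mean log2 signal over all 6 arrays served as the main one, and the others as a check. Total RNA came from tongues of 3 adult C57BL/6J mice that drank 4-nitroquinoline 1-oxide (4NQO) at 100 μg/ml for 8 weeks and of 3 adult untreated C57BL/6J mice, 1 array per tongue. 4NQO is a carcinogen whose metabolites form bulky adducts on DNA and which also causes oxidative damage. C57BL/6J is an inbred laboratory strain, and the labels name no engineered allele in either group. The values are log2 signals per probe set of a whole tongue, so that fewer cells of a type and less RNA per cell cannot be told apart. Signals of different probe sets depend on their oligonucleotides, and levels were therefore not compared between genes.

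Mismatch repair removes bases that were wrongly paired during DNA replication. MutS homologs recognise the error as heterodimers: Msh6 gives the dimer that binds single mispaired bases and short loops, and Msh3 the one that binds longer insertion and deletion loops. MutL homologs act next, and Pms2 supplies the endonuclease that nicks the new strand. Exo1 then degrades the strand from the nick, and replication proteins fill the gap. In dividing epithelium such as the basal layer of the tongue the pathway works next to the replication fork.

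The median log2 signal was 4.45 to 4.55 on the 4NQO arrays and 4.57 to 4.60 on the control arrays. Defining transcripts of the tissue were strong on all arrays. Krt14 of basal keratinocytes had 13.2 to 13.5 in 4NQO-treated tongues and 12.9 to 13.2 in control tongues, and Acta1 of skeletal muscle had 13.6 to 13.7 in 4NQO-treated tongues and 13.7 to 13.9 in control tongues. The Gapdh control probe sets gave a 3′ minus 5′ difference of 1.07 in 4NQO replicate 2 and 1.67 in control replicate 3, against 0.086 to 0.47 on the other arrays. The actin control probe sets did not set these arrays apart, with 0.954 and 1.01, and gave the highest value, 1.12, in 4NQO replicate 1. Amy1, an amylase of salivary gland, varied within both groups, with 6.25 to 12.5 in 4NQO-treated tongues and 7.73 to 11.8 in control tongues. Its highest values were in 4NQO replicate 3 and control replicate 2. Aqp5, Pigr and Bhlha15 were also highest there, with 7.31, 6.88 and 6.53 in 4NQO replicate 3 and 6.25, 5.73 and 5.07 in control replicate 2. Bpifa1 and Muc19 did not vary so, but their signals were only 2.17 to 2.72. The gland content of the tongues was not tested.

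None of the 6 genes passed limma's moderated test at an adjusted p under 0.05, where 0.132% of all genes passed. Exo1 and Msh6 were higher in 4NQO-treated tongue at an unadjusted p under 0.05, 2 of 6 genes against 6.68% of all genes, and none of the 6 was lower against 3.74%. Over all genes this is 1216 higher and 681 lower, or 1739 higher and 340 lower with each array centred on its median, and Exo1 and Msh6 kept their sign under both. The methods' t-test likewise gave no adjusted p under 0.05 for a member. The same 2 genes were higher in every 4NQO-treated tongue than in any control tongue, a pattern seen in 9.59% of all genes. Msh3 was lower without overlap, a pattern seen in 7.18%. Pms2, Mlh3 and Pms1 overlapped between the groups. The median log2 difference of the 6 genes was 0.089, and that of all genes was -0.01.

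**Figure D1:**
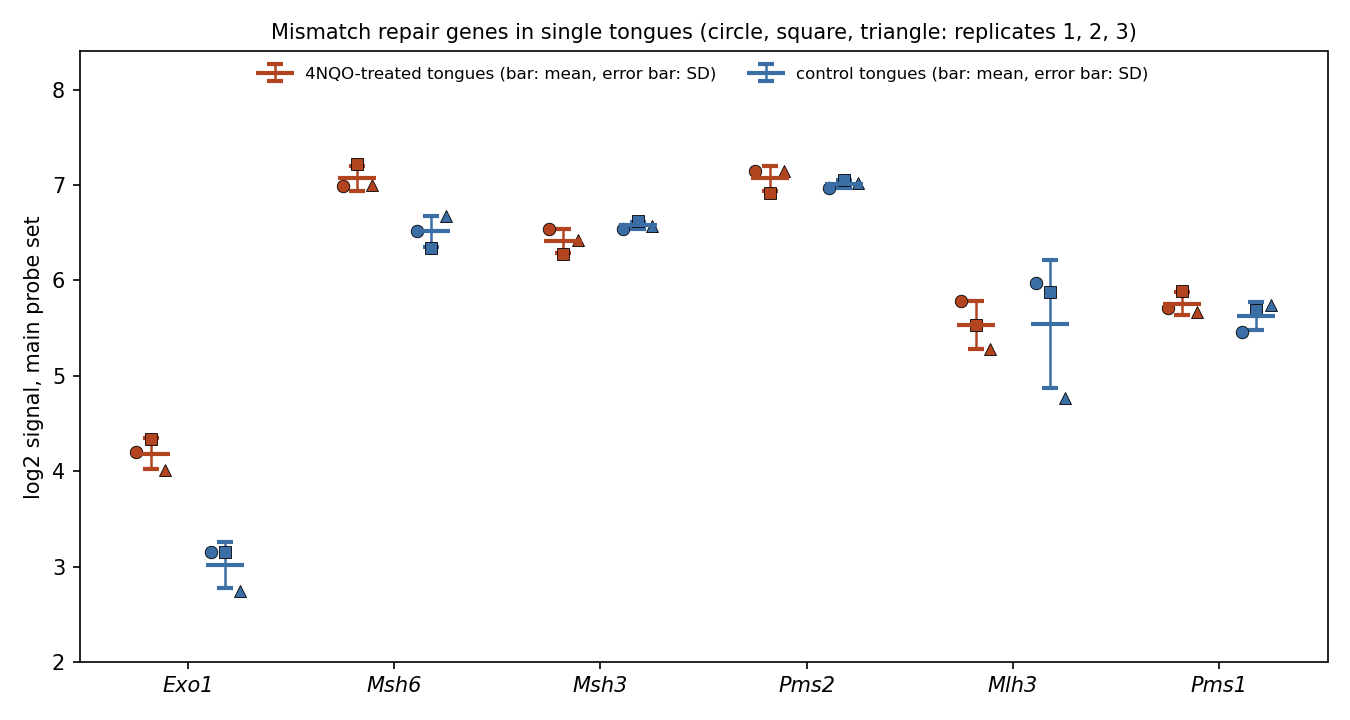
Log2 signal of the main probe set of each gene (vertical axis) in 3 4NQO-treated tongues and 3 control tongues, with 1 point per tongue, a line at the mean of each group and its SD as the error bar. Exo1 and Msh6 lie higher in all 4NQO-treated tongues, Msh3 lies slightly lower, and control replicate 3 lies far below the other control tongues for Mlh3.

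Exo1, the exonuclease that excises the strand carrying the error, showed the largest difference of the 6. Its log2 signal was 4.20, 4.33 and 4.01 in 4NQO-treated tongues 1 to 3, and 3.16, 3.15 and 2.74 in control tongues 1 to 3. The lowest 4NQO-treated tongue lay 0.85 above the highest control tongue. The means were 4.18 ± 0.16 in 4NQO-treated tongue and 3.02 ± 0.24 in control tongue (SD, n = 3 each). The difference was 1.17 on the log2 scale (standard error 0.16, 95% interval 0.79 to 1.55), with an unadjusted p of 0.000107 from limma, which ranked 37 among 18193 genes. After adjustment over all genes, limma gave an adjusted p of 0.0525, just short of the threshold. It was 0.0449 from limma with each array centred on its median, and 0.0403 with limma's robust variance estimate. Those were the only 2 alternatives that passed. It was 0.0539 from limma after quantile normalization, 0.129 from limma with the replicate number as a block, and 0.343 from the methods' t-test. The mean of its 3 probe sets gave a log2 difference of 0.60 (standard error 0.10, adjusted p = 0.0927 from limma). On each array the signal of Exo1 was under the array's median. Whether it exceeds background is unknown, and the difference is therefore left on the log2 scale, without a fold.

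Of the other probe sets of Exo1, one showed the same pattern and one did not. Probe set 1418027_at had 3.75, 3.62 and 3.72 in 4NQO-treated tongues and 3.08, 3.01 and 3.07 in control tongues, again without overlap. Its difference was 0.64 (standard error 0.12, adjusted p = 0.131 from limma over all single-gene probe sets). The annotation gives it the same source sequence as the main probe set. The positions of the probes were not examined, so whether the pair samples separate parts of that sequence is not known. Probe set 1430225_at, the dimmest, averaged 2.04 ± 0.13 in 4NQO-treated tongue and 2.05 ± 0.18 in control tongue (SD, n = 3 each), and its groups overlapped.

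Msh6, the MutS homolog for mispaired bases, had a log2 signal of 6.993, 7.223 and 6.999 in 4NQO-treated tongues 1 to 3, and 6.515, 6.345 and 6.678 in control tongues 1 to 3. All 4NQO-treated tongues lay above all control tongues, by at least 0.31. The means were 7.07 ± 0.13 in 4NQO-treated tongue and 6.51 ± 0.17 in control tongue (SD, n = 3 each). This was a 1.47-fold difference (95% interval 1.14 to 1.90), or 0.56 on the log2 scale with a standard error of 0.16. The unadjusted p was 0.00792 and the adjusted p 0.277, both from limma. Msh6 has a single probe set, which lies above the array medians on all 6 arrays.

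Msh3, the MutS homolog for longer loops, lay on the other side. Its log2 signal was 6.53, 6.28 and 6.42 in 4NQO-treated tongues 1 to 3, and 6.54, 6.62 and 6.57 in control tongues 1 to 3. The groups did not overlap, but the highest 4NQO-treated tongue was only 0.0087 below the lowest control tongue. The log2 difference of -0.16 (standard error 0.15, 95% interval -0.50 to 0.17) did not pass limma's test (adjusted p = 0.717).

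Dimmer probe sets of Msh3 gave a larger difference of the same sign. Probe set 1422261_a_at had 3.70, 3.70 and 4.00 in 4NQO-treated tongues and 4.54, 4.44 and 4.04 in control tongues, a log2 difference of -0.54 (95% interval -0.96 to -0.12). Probe set 1446511_at had 3.18, 2.91 and 3.10 in 4NQO-treated tongues and 3.39, 3.69 and 3.73 in control tongues, a log2 difference of -0.54 (95% interval -0.88 to -0.20). Neither passed over all single-gene probe sets (adjusted p = 0.387 and 0.296 from limma), and both lie below the array medians or close to them. The dimmest, 1430643_at, had a log2 difference of 0.04 and overlapping groups. With the mean of the 4 probe sets in place of the main one, Msh3 had a log2 difference of -0.30 (standard error 0.11) and an unadjusted p of 0.0323 from limma, with an adjusted p of 0.444.

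The difference between both MutS homologs within an array was compared after their values were seen. Msh6 minus Msh3 was 0.46, 0.94 and 0.58 on the log2 scale in 4NQO-treated tongues 1 to 3, and -0.03, -0.27 and 0.11 in control tongues 1 to 3. The groups did not overlap, and their means differed by 0.72. The exact two-sided permutation p was 0.1, the smallest that 3 against 3 tongues can give. Both had to follow, since Msh6 was higher and Msh3 lower without overlap. They therefore add nothing to the values of the single genes. Msh6 minus Pms2, also chosen after the values were seen, did not overlap between the groups either. Its means were 0.0031 in 4NQO-treated tongue and -0.50 in control tongue, a difference of 0.51, with the same exact permutation p of 0.1. Msh6 alone did not overlap, so this comparison is not separate from it. The absolute offset depends on the oligonucleotides of both probe sets and has no meaning of its own. Over the 6 tongues Msh6 and Exo1 had a Pearson r of 0.85 and Msh6 and Msh3 one of -0.86, which describes mainly the gap between the groups.

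Promoter sequences of Msh6 and Msh3 are shown because the log2 differences of these MutS homologs had opposite signs, neither of which passed the test after adjustment. Promoters of 5 of the 6 genes were found in RefSeq (GRCm38.p6), each spanning 250 bases before and 50 bases after the annotated start, and that of Exo1 was not among them. Each was searched on both strands for the words TTTCCCGC, TTTCGCGC, TTTGCCGC and TTTGGCGC, which are binding words of E2F, the transcription factor family of S phase genes. It was also searched for TGACNNNGC, the core of the antioxidant response element bound by NRF2. Capitals mark the matches, and both sequences are given 5′ to 3′ on the strand of the gene, Msh6 at chr17:87974800-87975099 on the plus strand and Msh3 at chr13:92354954-92355253 on the minus strand.
Msh6: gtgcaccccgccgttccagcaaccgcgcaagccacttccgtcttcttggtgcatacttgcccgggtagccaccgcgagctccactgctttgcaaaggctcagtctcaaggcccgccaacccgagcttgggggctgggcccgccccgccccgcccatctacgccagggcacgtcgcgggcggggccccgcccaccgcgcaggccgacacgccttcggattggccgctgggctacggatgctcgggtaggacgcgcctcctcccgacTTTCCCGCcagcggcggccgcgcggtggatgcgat
Msh3: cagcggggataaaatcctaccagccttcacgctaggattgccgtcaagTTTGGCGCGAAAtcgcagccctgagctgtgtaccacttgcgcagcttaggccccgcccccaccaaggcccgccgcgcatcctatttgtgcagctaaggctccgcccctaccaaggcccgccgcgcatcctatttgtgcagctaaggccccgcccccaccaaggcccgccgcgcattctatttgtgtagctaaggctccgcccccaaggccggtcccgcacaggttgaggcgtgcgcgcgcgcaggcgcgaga

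Msh6 holds 1 E2F word, which begins at base 16 counted from the start, and Msh3 holds 2 that overlap each other on opposite strands, the first of which begins at base -202 from it. An E2F word stands in 2.32% of 27025 promoters of the same length. The promoters of Pms2, Mlh3 and Pms1 have none. The NRF2 core was found once, in the promoter of Pms2, and it stands in 12.5% of promoters. A match in the letters does not show that a factor was bound.

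For the MutL homologs no difference larger than the spread of the tongues was seen on the main probe sets. Pms2 had a log2 signal of 7.14, 6.91 and 7.15 in 4NQO-treated tongues 1 to 3, and 6.97, 7.06 and 7.02 in control tongues 1 to 3. The log2 difference was 0.05 with a 95% interval of -0.28 to 0.38 (adjusted p = 0.920 from limma). Changes beyond 1.30-fold in either direction lie outside that interval.

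The dimmer probe sets of Pms2 disagreed with the main one. Probe set 1436273_at had 3.92, 3.81 and 4.24 in 4NQO-treated tongues and 4.48, 4.46 and 4.48 in control tongues, a log2 difference of -0.49 (95% interval -0.86 to -0.12, adjusted p = 0.369 from limma over all single-gene probe sets). Probe set 1432421_at had 4.12, 4.47 and 4.42 in 4NQO-treated tongues and 4.54, 4.65 and 4.52 in control tongues, a log2 difference of -0.23. Both were lower in every 4NQO-treated tongue than in any control tongue, with signals close to or below the array medians. The direction for Pms2 therefore depends on which probe set is read.

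Mlh3, a MutL homolog with an endonuclease site that also serves meiotic crossing over, had a log2 signal of 5.78, 5.53 and 5.28 in 4NQO-treated tongues 1 to 3, and 5.97, 5.88 and 4.77 in control tongues 1 to 3. The difference was -0.01 with a wide 95% interval of -0.76 to 0.74, and control replicate 3 lay far below the other control tongues. Without that array the log2 difference was -0.40 (adjusted p = 0.471 from limma). That array also had the largest Gapdh 3′ minus 5′ difference, 1.67, but not the largest actin one, and the part of this in the Mlh3 signal was not tested. Pms1, a MutL homolog whose part in mammalian mismatch repair is not settled, had 5.71, 5.89 and 5.67 in 4NQO-treated tongues 1 to 3, and 5.46, 5.69 and 5.74 in control tongues 1 to 3. Its log2 difference was 0.12 (95% interval -0.24 to 0.49), and the groups overlapped.

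**Figure D2:**
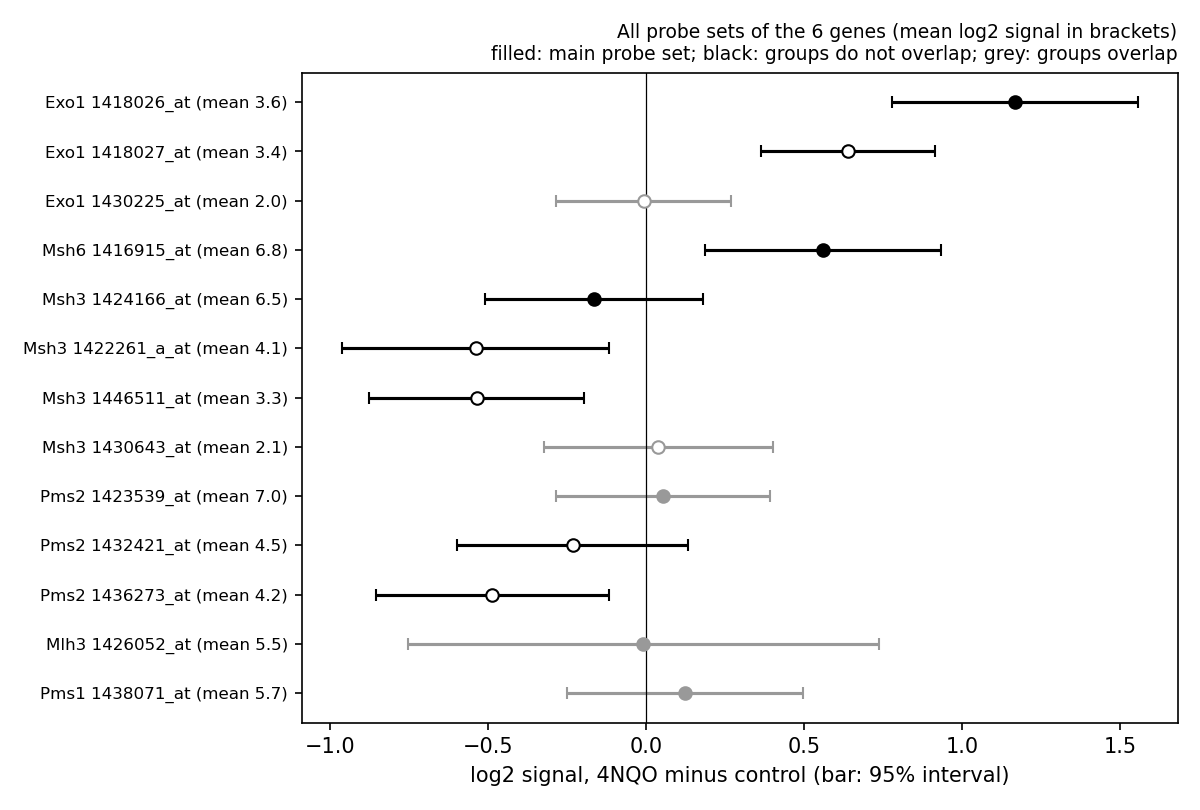
Log2 difference of 4NQO minus control (horizontal axis) with its 95% interval from limma for each of 13 probe sets of the 6 genes, ordered by gene and then by mean signal. For Exo1 and for Msh3 the dimmest probe set lies near 0, and for Pms2 the main probe set lies near 0 and the dimmer ones below it.

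Over all 13 probe sets of the 6 genes, 3 were higher without overlap, those of Msh6 and 2 of Exo1, where 8.61% of all single-gene probe sets were. Another 5 were lower without overlap, 3 of Msh3 and 2 of Pms2, where 8.09% were. Probe sets of 1 gene share its RNA and are not independent.

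Of the replication proteins that complete the repair, many had a higher signal in 4NQO-treated tongue. Of 15 listed, 14 were measured and 12 had a positive log2 difference, where 47.7% of all genes had one. limma gave 7 of them an unadjusted p under 0.05, all with a higher signal in 4NQO-treated tongue, where 6.68% of all genes were so, none passed after adjustment, and the median log2 difference was 0.36. Pcna, the sliding clamp that directs MutL to the new strand, had 11.1, 11.4 and 11.1 in 4NQO-treated tongues 1 to 3, and 10.5, 10.4 and 10.6 in control tongues 1 to 3. Its log2 difference was 0.69 (standard error 0.13, adjusted p = 0.104 from limma). Rfc5 and Rfc4, subunits of the clamp loader, had log2 differences of 0.92 and 0.65. Lig1, the ligase that seals the repaired strand, had 0.95. Pold4 and Rfc1 were the members with a negative sign, at -0.27 and -0.06, and their groups overlapped. Msh4 and Msh5, the MutS homologs of meiosis, had log2 differences of 0.15 and -0.10, and Msh4 had signals of 2.43 to 2.53 in 4NQO-treated tongues and 2.13 to 2.42 in control tongues, far below the array medians.

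**Figure D3:**
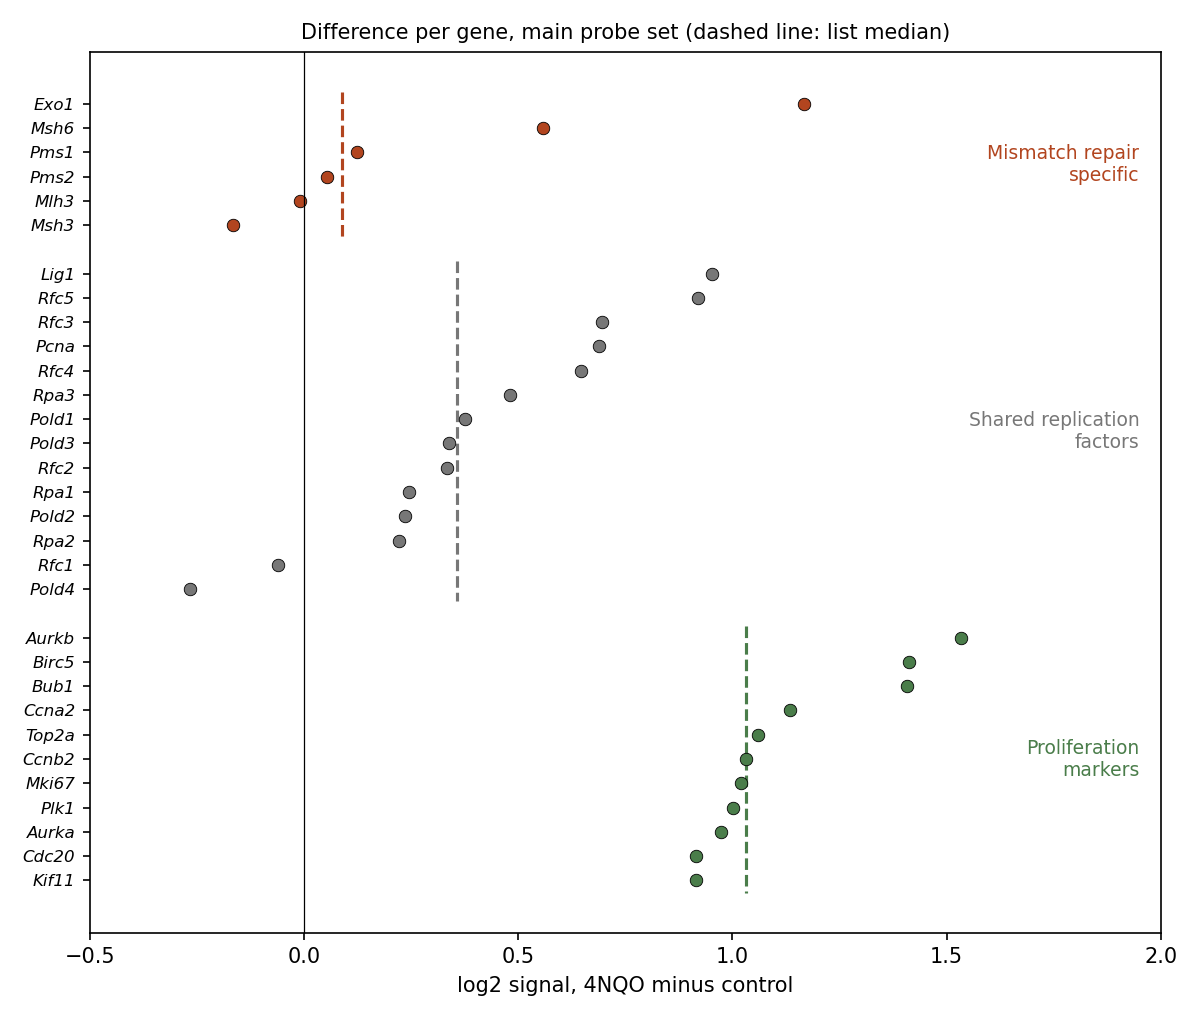
Log2 difference of 4NQO minus control (horizontal axis) for the main probe set of each mismatch repair specific gene, of each shared replication factor and of each proliferation marker, with 1 point per gene and a dashed line for the list median. The medians are 0.089, 0.36 and 1.03, and Exo1 lies among the proliferation markers.

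Markers of dividing cells were higher in 4NQO-treated tongue, as Exo1 and Msh6 were. Of 12 listed, 11 were measured, and all 11 were higher in every 4NQO-treated tongue than in any control tongue, against 9.59% of all genes, with a median log2 difference of 1.03. limma gave all 11 an unadjusted p under 0.05, against 6.68% of all genes, and 0 passed after adjustment. Their mean log2 signal was 7.40 to 7.90 in 4NQO-treated tongues and 6.16 to 6.92 in control tongues, and none was listed at 0. Ccna2, the S phase cyclin, had a log2 difference of 1.14, and Birc5 and Aurkb, which act on chromosomes in mitosis, had 1.41 and 1.53. Aurkb had 2.89, 2.93 and 3.86 in control tongues 1 to 3, under the array medians, where the distance from background is unknown. Basal keratinocyte markers had a mean log2 signal of 10.6 to 11.1 in 4NQO-treated tongues and 10.4 to 10.9 in control tongues, and 0 of 6 were without overlap. Of 5 suprabasal markers measured, 2 were higher without overlap, against 9.59% of all genes. These were Sprr1b and Krt6a, with log2 differences of 1.94 and 0.34. Only Krt4 of that list had a negative difference, -0.20, with overlapping groups. The median log2 difference was 0.25 for basal and 0.25 for suprabasal keratinocyte markers, 0.17 for salivary gland, 0.19 for leukocyte, 0.01 for endothelial, -0.15 for muscle and -0.28 for fibroblast markers, and no marker passed limma's test after adjustment. The part of dividing or other cells in the Exo1 and Msh6 signals was not tested.

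The genes most like each member over the 6 arrays were sought by Pearson correlation among 9097 genes with a mean signal at or above the median gene. For Exo1 they were Rrm1 (r = 0.993), the large subunit of ribonucleotide reductase, Slc20a1 (0.992), a phosphate transporter, and Mtm1 (0.990), a lipid phosphatase. For Msh6 they were Zmat3 (0.995), a zinc finger gene induced by p53, Rbm43 (0.995) and Ift22 (0.994). Msh3 was most like Ddx47 (0.988), Pms2 most like Sorbs3 (0.977), Mlh3 most like Klhdc2 (0.993) and Pms1 most like Gdi2 (0.992). The typical gene reached a highest r of 0.991 with some other gene, so such values are common over 6 arrays.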

How the data were processed

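Tongue RNA of 3 4NQO-treated and 3 control mice was hybridised to Affymetrix arrays with 45101 probe sets. The table the authors deposited holds log2 values. The paper describes normalization with Bioconductor packages, but names another deposited series for its arrays, so whether that account holds for these values is not known. The method and the genome build are not given in the sources used here. Probe sets with 1 annotated gene (34945) were kept, symbols were updated by Entrez ID to GRCm38.p6 (18032 of 18193 genes found), and 1 main probe set per gene was tested.

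limma 3.58.1 in R 4.3.3 was run on all 18193 genes (lmFit, then eBayes with trend, no filter on dim genes). P-values were adjusted by Benjamini-Hochberg, and 0.05 was the threshold. The fit was tested on simulated data. The labels give no batch. The number of arrays limits the precision. The alternatives tried were centred arrays, quantile normalization, a filter on dim genes, other probe sets, other variance models, the methods' t-test, the replicate block and leaving out arrays. SAM, the authors' test, was not run, and limma was used in its place.

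The members and lists were chosen with earlier results of these data known. Named genes are the 6 members, up to 3 genes of each list with the smallest p, and the 3 genes most like a member, of which only the first is printed for Msh3, Pms2, Mlh3 and Pms1. Lig1, Pold4, Rfc1, Ormdl1 and Aimp2, and the tissue markers given with values, were named after their values were seen. Hmgb1, Ccnb1 and Dsg3 had no probe set of their own here, and Muc19 was read through its older name Smgc. Protein motifs were not searched.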

Additional observations from a re-analysis of the deposited data

How the results depend on the processing

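No adjusted p of Msh6, Msh3, Pms2, Mlh3 or Pms1 passed under any alternative, and Exo1 passed under 2. The number of members past the adjusted p was 1 with arrays centred on their medians and 1 with a robust trend, in both cases Exo1 (log2 differences 1.24 and 1.17). Leaving out 1 array at a time gave log2 differences of 1.03 to 1.25 for Exo1, 0.47 to 0.64 for Msh6, -0.23 to -0.10 for Msh3, 0.01 to 0.13 for Pms2, -0.395 to 0.209 for Mlh3 and 0.04 to 0.18 for Pms1, with Exo1 at an adjusted p of 0.0969 to 0.197 from limma.

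At an unadjusted p under 0.05, 1 member was higher when dim genes were left out, against 755 of the 9097 genes kept. That filter removes Exo1, Mlh3 and Pms1. At that threshold 1 member was lower (Msh3) with the mean of probe sets, against 763 of all 18193 genes. With the probe set of largest interquartile range 2 were lower (Msh3 and Pms2), against 839 of 18193. Pms2 changed sign with the mean of probe sets (-0.222), with the probe set of largest interquartile range (-0.486) and on its other probe sets (-0.231 and -0.486). Mlh3 had 0.0479 after quantile normalization and 0.0666 after centring, both far under its standard error, and also changed sign without control replicate 1, without control replicate 2 and without 4NQO replicate 3. The dimmest probe sets gave 0.0381 for Msh3 and -0.00777 for Exo1. The cause of these changes was not tested. Centring moved the median of all genes to 0.06 and quantile normalization to 0.01, and Exo1 and Msh6 stayed positive under both. Over all genes 23 were higher and 1 lower at an adjusted p under 0.05, against 63 and 2 with centring, 43 and 4 with the robust trend, 2 and 0 with the replicate block, and 0 and 0 without control replicate 2.

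With the replicate number as a block, the log2 difference of Exo1 was 1.17 and its adjusted p 0.129 from limma. The labels do not say whether equal numbers pair the tongues. Deviations from the group means of same-numbered tongues correlated at 0.29, -0.51 and 0.05. This cannot settle the question, because the deviations within a group are tied to each other. Without control replicate 3 and 4NQO replicate 2, Exo1 had 0.95, Msh6 0.57 and Mlh3 -0.397. Signals below the array medians have no shown distance from background.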

Other observations

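Pms1 and Pms2 start close to another gene on the opposite strand in RefSeq (GRCm38.p6), and these neighbours were looked at after the values of the members were seen. Ormdl1, a regulator of sphingolipid synthesis, starts 67 bases from Pms1. It had a log2 signal of 6.32, 6.86 and 6.54 in 4NQO-treated tongues 1 to 3, and 6.13, 5.49 and 6.27 in control tongues 1 to 3. All 4NQO-treated tongues lay above all control tongues, with a log2 difference of 0.61 (standard error 0.24, unadjusted p = 0.0368 and adjusted p = 0.442 from limma), against 0.12 for Pms1. Whether the pair differ from each other was not tested. Aimp2, a scaffold protein of the tRNA synthetase complex, starts 162 bases from Pms2. Its log2 difference was 0.13 (standard error 0.16), its groups overlapped, and the main probe set of Pms2 gave 0.05.

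Of 8 leukocyte markers, limma gave 2 a higher and 1 a lower signal in 4NQO-treated tongue at an unadjusted p under 0.05, and 0 after adjustment. Of all genes, 6.68% were higher and 3.74% lower at that unadjusted threshold. Ptprc, the common leukocyte antigen, had 6.05, 7.22 and 7.19 in 4NQO-treated tongues 1 to 3, and 5.81, 5.17 and 6.12 in control tongues 1 to 3, a log2 difference of 1.12 (unadjusted p = 0.0153 and adjusted p = 0.339 from limma), with overlapping groups. H2-Aa, a class II antigen of presenting cells, had a log2 difference of 1.09, while Cd79a of B cells had -0.59. The other markers, Cd68, Csf1r, Cd3e, Itgam and Lyz2, had log2 differences of -0.02 to 0.37, and the list had a median of 0.19. The part of such cells in the signals of the mismatch repair genes was not tested.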
